A study of Rattus norvegicus with 31 samples.

Results

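The proteins of the cytosolic ribosome were followed in spinal motor neurons at 4 times after a cord injury. Members were the probe sets (groups of short array probes for 1 transcript) whose annotation gives a single gene symbol of the form Rpl or Rps followed by the protein's number or letter, with the S6 kinases left out. The rule found 45 probe sets for 42 genes among the 12913 probe sets tested. Of these, 30 probe sets for 29 genes encode proteins of the large (60S) subunit and 15 for 13 genes encode proteins of the small (40S) subunit. A further 33 probe sets match a ribosomal protein gene together with other genes or pseudogenes and are not members.

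The animals were adult male Wistar rats whose tail motor neurons had been labelled by the retrograde dye Fluoro-Gold and cut by laser from segments S3 and S4 of the cord. The groups were uninjured rats (Control, n = 4) and rats taken 2 days (Spi-2, n = 6), 7 days (Spi-7, n = 5), 21 days (Spi-21, n = 8) and 60 days (Spi-60, n = 8) after removal of a piece of cord at S2, which cut off the tail segments from the brain. Each of the 31 arrays held RNA of 1 rat that had gone through a pair of linear amplification rounds, so that replicates are separate animals. An earlier study supplied the arrays of days 21 and 60 and the present one those of Control and days 2 and 7, so that study and time after injury cannot be told apart between these 2 sets. The Control rats are described as uninjured, not as sham operated, so that the operation itself is part of every comparison with Control.

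All levels below are on the log2 scale of the RMA summary, where a difference of 1 is a 2-fold difference. The array medians lay between 5.95 and 6.10. The control probes at the 3 prime end of Gapdh minus those at its 5 prime end give a log2 difference that grows as the amplified RNA gets shorter. It averaged 2.01 ± 0.33 (SD) in the 4 Control and 3.49 ± 0.35 in the 8 Spi-60 animals, which did not overlap. In Spi-21 it fell into 2 ranges, from 2.76 to 3.54 in replicates 1 to 4 and from 1.13 to 1.66 in replicates 5 to 8. Of the 5 motor neuron markers measured, Nefh (neurofilament heavy chain) had a mean level of 14.14 and the list's mean lay between 9.66 and 10.50 in every animal, while Isl1 averaged 5.70. At day 60 Slc5a7, the choline transporter, was called lower (-1.06, limma adjusted p 0.011) and Prph (peripherin) higher (0.79, limma adjusted p 0.0029). The 7 markers of microglia and macrophages had a mean of 5.39 to 5.68 in the Control animals, 6.18 to 7.08 in Spi-2 and 5.77 to 7.11 in Spi-60. The 4 interneuron markers ran from 6.06 to 7.52 in Control and from 5.65 to 6.36 in Spi-60, and the 5 oligodendrocyte markers from 7.69 to 8.55 and from 7.60 to 8.42. At day 60, 2 of the 7 microglial markers were called higher (Csf1r and C1qb), 2 of the 4 interneuron markers lower (Gad1 and Slc32a1), 1 of the 5 oligodendrocyte markers lower (Mog) and 1 of the 5 astrocyte markers higher (Gfap). Their part in the results was not tested.

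Ribosomal proteins are made in equal numbers for assembly in the nucleolus, where each subunit is built on its own rRNA before both are exported. Their mRNAs are among the most abundant of any cell and usually begin with a C followed by a run of pyrimidines, the terminal oligopyrimidine tract, through which the mTOR pathway sets how strongly they are translated. Motor neurons have large cell bodies packed with ribosomes, the Nissl bodies of classical histology.

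The start of the gene was looked at in all members with an entry in RefSeq's promoter table (build GRCr8), which held 36 of the 42 genes. A tract was defined as a C followed by at least 4 bases that are each C or T, read on the gene's strand. It began exactly at the annotated start in 10 of the 36 genes (27.8%), against 2.63% of the 33469 promoters of the table, and within 5 bases of it in 18 (50%), against 17.0%. Among the 15 genes with an entry that were called lower at day 60 (below), 9 had a tract within 5 bases, and among the other 21 members 9 did. The match is a description of the letters near the start and annotated starts can lie some bases away from the used one. The windows of 30 bases below, from 10 bases before the start, belong to members described further on. Capitals mark the tract, and Rps3 is shown as a member without one in this window. Rpl14 lies at chr8:129163610-129163639 (plus strand), Rpl23 at chr10:83272165-83272194 (minus), Rpl35a at chr11:81235002-81235031 (minus), Rps24 at chr16:96507-96536 (plus), Rps23 at chr2:23814507-23814536 (plus), Rps28 at chr7:15311314-15311343 (minus) and Rps3 at chr1:163195757-163195786 (minus).
Rpl14: ggccctctccCTTCTCgctgagcgccgcca
Rpl23: cttcctttctgaCTCTTTCCggacgctcaa
Rpl35a: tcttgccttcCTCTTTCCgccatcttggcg
Rps24: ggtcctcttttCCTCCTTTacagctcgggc
Rps23: ccttcctgcctCTCTTCTCTCTTTCTCTCg
Rps28: ccctgctcacgtgaCTCCTCTCCgctagat
Rps3: ttcagcggcgcgcggcagcaagatggcggt
The windows of Rps24, which was lower after injury, and Rps28, which was higher, both hold a tract, and that of Rps3, which was lower, does not.

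Over the 5 groups, 12 of the 45 ribosomal protein probe sets were called by limma's moderated F-test at a false discovery rate (FDR) of 0.02, that is 26.7% of them, where 16.2% of all probe sets were called. They were 10 of the 30 large subunit and 2 of the 15 small subunit probe sets. Ribosomal protein mRNAs are bright on the array, and bright probe sets were called more often. Of the 911 other probe sets with a mean over 9, 32.1% were called, and of the 29 members with such a mean 31.0%. The 2 small subunit members were Rps24, which was lower after injury, and Rps28, which was higher. In a bulk sample, fewer cells of a type and less RNA per cell cannot be told apart.

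At day 60, 33 of the 45 ribosomal protein probe sets had a value below 0 for their mRNA. Values below 0 were also found in 6390 of all 12913 probe sets and in 560 of the 911 other bright ones. Of the 45 probe sets, 17 were called lower than Control at an adjusted p under 0.05 by limma (37.8%, where 9.89% of all probe sets were called lower) and 1 higher (2.22%, where 7.2% of all were called higher). The median change was -0.34, against 0.00 over all probe sets and -0.12 over the 911 other bright ones, of which 20.1% were called lower. In the large subunit 12 of 30 were called lower and none higher, 24 of 30 had a value below 0, and the median was -0.38. In the small subunit 5 of 15 were called lower and 1 higher, and the median was -0.21. The difference between the subunits was not tested. The 17 changes ranged from -0.35 for Rps15a to -1.28 for Rps3a.

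**Figure D1:**
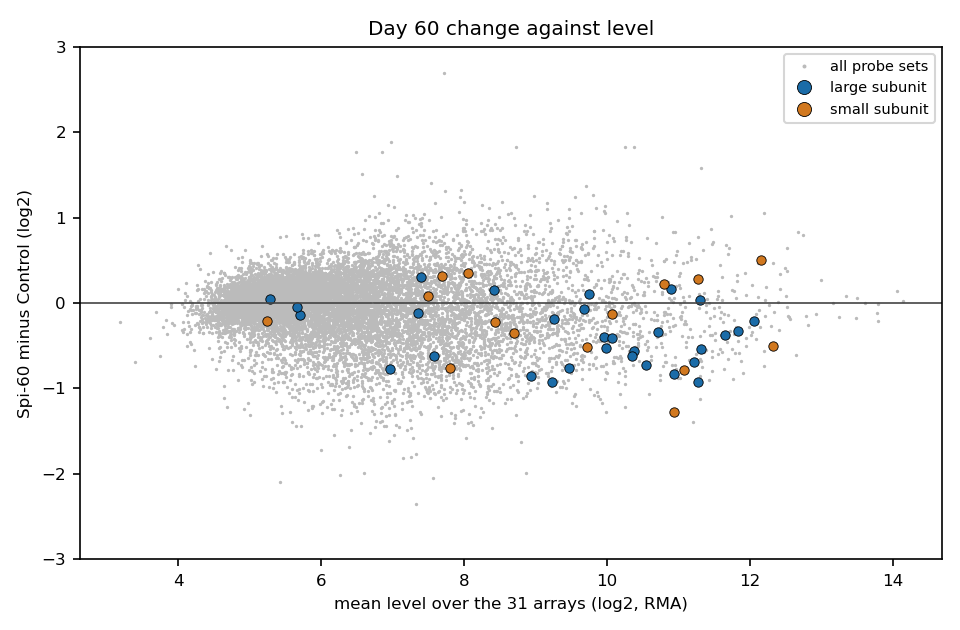
Spi-60 minus Control (vertical axis, log2) against the mean level over the 31 arrays (horizontal axis, log2) for all 12913 probe sets (grey points) and for the 30 large (blue) and 15 small (orange) subunit probe sets. Of the 29 members with a mean over 9, 13 were called lower and 1 higher, with a median of -0.41, while the 16 dimmer members had a median of -0.13.

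The Gapdh difference moved with the day 60 comparison. With it as a covariate in the limma fit, 2 of the 45 members were called lower and 0 higher at day 60, and over all probe sets 170 were called lower and 97 higher in place of 1277 and 930. The median change of the members moved little, from -0.34 to -0.30. Control and Spi-60 had no common range of the covariate, so that group and Gapdh difference cannot be told apart there. A further quantile normalization over all arrays gave a median of -0.23 for the members and 0.00 for the other bright probe sets. With that normalization 939 of all probe sets were called lower and 1154 higher at day 60.

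The large subunit members called lower at day 60 were Rpl5, Rpl7, Rpl14, Rpl21, Rpl22, Rpl23, Rpl23a, Rpl24, Rpl26, Rpl27a, Rpl35 and Rpl35a. Rpl35a, a protein in which mutations cause Diamond-Blackfan anaemia, had the smallest p of the members that day. In Control its level was 10.61, 10.70, 10.63 and 10.58. In Spi-60 the lowest, median and highest levels were 9.81, 10.01 and 10.19, so that all 8 animals lay below all 4 Control animals. The change was -0.62 ± 0.12 (SE) with an adjusted p of 5.9e-04 by limma. In the 8 Spi-21 animals the level ran from 9.98 over a median of 10.33 to 10.56, also below Control, with a change of -0.36 ± 0.12 (limma adjusted p 0.030). The day 21 call was lost in 9 of the 41 alternatives and the day 60 call in 1, the Gapdh covariate.
At days 2 and 7 the level of Rpl35a overlapped with Control. It ran from 10.28 to 11.09 in Spi-2 around a median of 10.54, and it was 10.59, 10.44, 10.51, 10.63 and 10.36 in Spi-7. Neither day was called.

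Rpl14, a large subunit protein, was the member called lower at every time. Its level was 7.60, 7.49, 7.70 and 7.68 in Control, and in Spi-7 it was 6.84, 7.02, 6.57, 7.33 and 6.54. It ran from 6.65 to 7.33 (median 6.75) in Spi-2, from 6.52 to 7.41 (median 6.97) in Spi-21 and from 6.55 to 7.22 (median 6.84) in Spi-60. No injured animal of any group reached the Control range. The changes were -0.78 ± 0.17, -0.76 ± 0.17, -0.69 ± 0.16 and -0.77 ± 0.16 in order of time, with limma adjusted p of 0.0034, 0.013, 0.0044 and 0.0014. The day 2 call held under all 41 alternatives, while the day 60 call was lost with the Gapdh covariate, the day 21 call without Spi-21 replicates 1 to 3, and the day 7 call with the covariate or without Control replicate 3.

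Rpl23 lies at the interface of the subunits and, like Rpl5 and Rpl11, binds Mdm2 when ribosome assembly is disturbed. It had Control levels of 10.33, 10.16, 10.38 and 10.20 and Spi-7 levels of 9.94, 9.90, 9.86, 9.76 and 9.59. In Spi-2 it ran from 9.42 to 10.13 (median 9.96), in Spi-21 from 9.83 to 10.37 (median 9.98) and in Spi-60 from 9.66 to 9.97 (median 9.92). All animals of Spi-2, Spi-7 and Spi-60 lay below Control, and Spi-21 overlapped with it. The changes were -0.40 ± 0.12, -0.46 ± 0.12, -0.24 ± 0.11 and -0.39 ± 0.11 in order of time, and all but day 21 were called (limma adjusted p 0.027, 0.032, 0.12 and 0.013). The calls at days 2 and 7 were each lost in 7 or 8 of the 41 alternatives. Its Mdm2-binding partners went separate ways in value: Rpl5 changed by -0.83 ± 0.20 at day 60 and was called (limma adjusted p 0.0053), and Rpl11 had a value of 0.10 and was not called.

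Of the other large subunit calls at day 60, some are described here after their values were seen, and none of these was called at day 2. Rpl26, which lies near the exit of the peptide tunnel, was at 12.01, 11.91, 11.89 and 11.51 in Control and from 10.35 to 11.47 in Spi-60, with a change of -0.92 ± 0.21 at day 60 and a value of -0.54 at day 2. Rpl7 changed by -0.93 ± 0.32 at day 60 and -1.02 ± 0.32 at day 21, with a value of -0.43 at day 2. Its day 60 call was lost in 10 of the 41 alternatives, among them the fits without any single Control animal. Its day 21 call was lost in 7 of the 41. Rpl21 had a value of 0.20 at day 2 and changed by -0.57 ± 0.13 at day 60. Rpl23a, where the signal recognition particle docks, had values of 0.26 at day 2 and -0.76 ± 0.22 at day 60.

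Among small subunit members, those called lower at day 60 were Rps3, Rps3a, Rps15a, Rps23 and Rps24. Rps24, also a Diamond-Blackfan anaemia gene, was at 8.13, 8.33, 8.35 and 8.39 in Control. In Spi-60 its level ran from 7.01 to 7.90 around a median of 7.60, with all 8 animals below Control. The change was -0.76 ± 0.16 (limma adjusted p 0.0021) and, unlike every other lower call of that day apart from Rpl23, it was kept with the Gapdh covariate. It was kept under all 41 alternatives.
Rps24 was also lower at day 21, by -0.60 ± 0.16 (limma adjusted p 0.014), where the 8 animals ran from 7.42 to 8.02 around a median of 7.67 and again stayed below Control. At day 2 the range was 7.46 to 8.27 with a median of 7.79, and at day 7 the levels were 8.17, 8.04, 7.97, 8.11 and 7.41. Both overlapped with Control and neither was called.

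By value the small subunit was split at day 60, with 9 of 15 probe sets below 0, where 560 of the 911 other bright ones were. The 6 above 0 were Rps28, the 3 sets of Rpsa, Rps15 and Rps29, of which Rps28 alone was called. Rps15 and Rps29 had values of 0.36 and 0.28. Rps6, the protein that S6 kinase phosphorylates, had a value of -0.78 and was not called (limma adjusted p 0.066). The most negative change was that of Rps3a, described after its values were seen, with Control levels of 12.25, 11.87, 11.97 and 11.31 and a Spi-60 range of 9.78 to 11.27 (median 10.69). No Spi-60 animal reached the Control range, and the change was -1.28 ± 0.31 (limma adjusted p 0.0054).

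Rps23, a protein of the decoding centre, had Control levels of 12.83, 12.45, 12.61 and 12.64 and ran from 11.82 to 12.37 (median 12.15) in Spi-60, with no overlap. The change at day 60 was -0.50 ± 0.13 (limma adjusted p 0.0095). Its values at days 2, 7 and 21, -0.23, -0.22 and -0.37, were not called.

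Rps3, which lies at the entry of the mRNA channel and also acts in DNA repair, had Control levels of 10.50, 9.99, 10.06 and 10.15. It ran from 9.36 to 10.22 (median 9.63) in Spi-2, from 9.31 to 10.04 (median 9.66) in Spi-21 and from 9.44 to 10.00 (median 9.67) in Spi-60, and was 9.82, 9.65, 9.64, 9.72 and 9.31 in Spi-7. The level was of the same size at each time after injury, and only Spi-7 lay wholly below Control. The changes were -0.48 ± 0.15, -0.55 ± 0.16, -0.56 ± 0.15 and -0.52 ± 0.15 in order of time, called at days 2, 21 and 60 (limma adjusted p 0.048, 0.0096 and 0.014) and not at day 7 (0.058). The day 2 call was lost in 21 of the 41 alternatives.

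Rps15a, a small subunit protein, had Control levels of 8.66, 9.11, 9.15 and 9.09, and replicate 1 stood apart from the other Control animals. It ran from 8.29 to 8.78 (median 8.66) in Spi-21 and from 8.45 to 8.85 (median 8.65) in Spi-60. In Spi-2 it ran from 8.58 to 8.92 (median 8.69), and in Spi-7 it was 8.70, 8.69, 8.60, 8.58 and 8.54. Each injured group lay below 3 Control animals and overlapped with replicate 1. The changes at days 21 and 60, -0.37 ± 0.10 and -0.35 ± 0.10, were called (limma adjusted p 0.012 and 0.015).

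**Figure D2:**
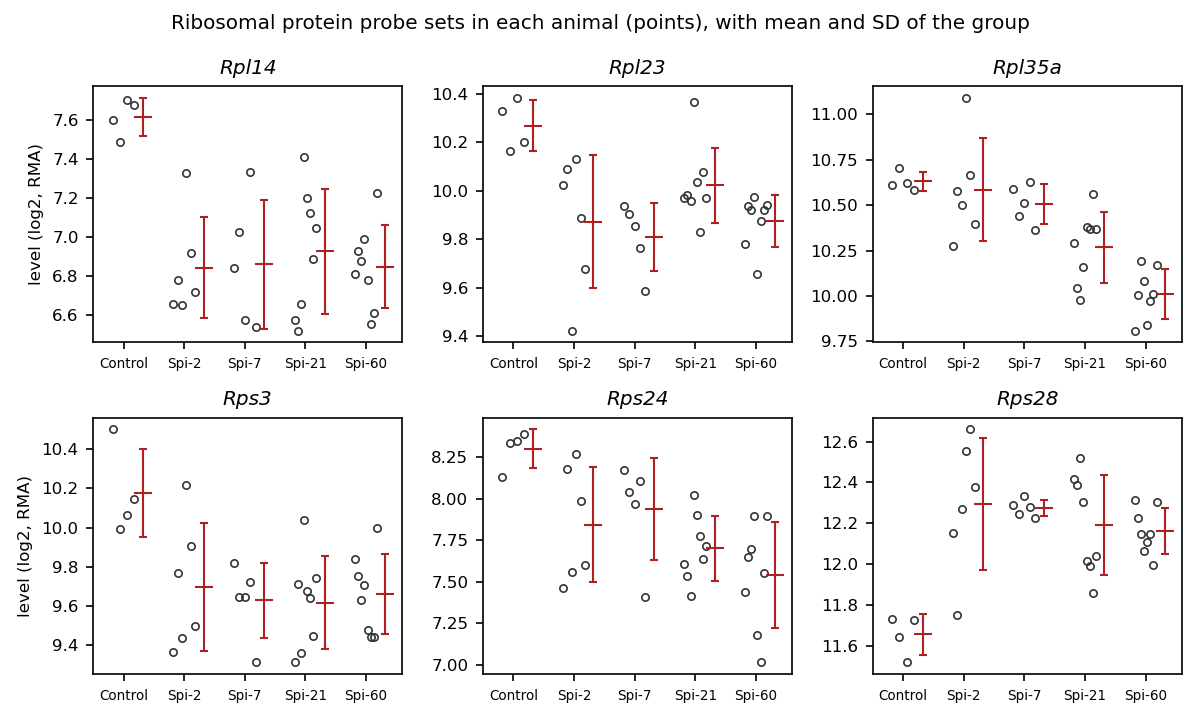
Level (vertical axis, log2, each panel on its own scale) of 6 ribosomal protein probe sets in each animal (open circles) of the 5 groups, with the group mean and SD (red). Rpl14 and Rps28 separate every injured animal from the 4 Control animals, in opposite directions, and Rpl35a falls below the Control range in Spi-21 and Spi-60.

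The member that rose was Rps28, a small subunit protein needed for trimming the rRNA of its subunit. It was at 11.73, 11.64, 11.52 and 11.73 in Control and at 12.29, 12.25, 12.33, 12.28 and 12.23 in Spi-7. It ran from 11.75 to 12.66 (median 12.32) in Spi-2, from 11.86 to 12.52 (median 12.17) in Spi-21 and from 11.99 to 12.31 (median 12.15) in Spi-60. Every injured animal lay above every Control animal, the lowest Spi-2 animal by a narrow margin. The changes were 0.64 ± 0.13, 0.62 ± 0.14, 0.54 ± 0.13 and 0.51 ± 0.13 in order of time, with limma adjusted p of 0.0023, 0.010, 0.0049 and 0.0062. The day 2 call was kept under all 41 alternatives, the day 60 call was lost with the Gapdh covariate, the day 21 call without Spi-21 replicates 1 to 3 or 1 to 4, and the day 7 call with the covariate or without Control replicate 3.

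Rpsa, the laminin receptor precursor on the solvent side of the small subunit, is read by 3 probe sets that differed. The probe set with suffix s, whose probes may match several transcripts, was at 10.91, 10.30, 10.31 and 10.28 in Control and ran from 10.55 to 11.98 (median 11.13) in Spi-2. Its change at day 2 was 0.76 ± 0.20 (limma adjusted p 0.014). The probe set with suffix x, some of whose probes may bind other transcripts, changed by 0.55 ± 0.15 at day 2 (limma adjusted p 0.021). The third, without a suffix, was at 7.87, 7.52, 7.38 and 7.63 in Control and ran from 6.62 to 7.99 (median 7.26) in Spi-2, with a value of -0.28 ± 0.24 (limma adjusted p 0.54). The direction for the gene at day 2 is therefore unsettled between its probe sets. Without Control replicate 3, neither of the called sets passed, and Control replicate 1 lay in the Spi-2 range for both. None of the 3 was called at days 7, 21 or 60.

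At day 2, 3 members were called lower (Rpl14, Rpl23 and Rps3) where 4.98% of all probe sets were, and 3 higher (Rps28 and 2 sets of Rpsa) where 3.9% were. Each count is 6.67% of the 45 members. The median over the members was -0.04. The large subunit had a median of -0.02 and the small one of -0.23, while the mean over probe sets and animals was -0.05 and -0.04. The mean deviation of the large subunit probe sets from their Control mean ran from -0.51 in Spi-2 replicate 1 to 0.53 in replicate 4 (SD 0.35, against 0.09 to 0.24 in the other groups), and that of the small subunit from -0.32 to 0.50 in the same animals. Without replicate 4, 6 members were called lower at day 2. Without Control replicate 3 or Spi-2 replicates 3 or 6, 1 member was. Over all probe sets 536 were called lower without Spi-2 replicate 4, in place of 643. Without Control replicate 3 there were 413 lower calls over all probe sets, and without Spi-2 replicates 3 or 6 there were 495 and 527.

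At day 7, 2 members were called lower (Rpl14 and Rpl23) where 1.67% of all probe sets were, and 1 higher (Rps28) where 0.914% were, with a median of -0.12. Without Control replicate 3 none was called in either direction. Over all probe sets that fit called 100 lower and 47 higher, in place of 216 and 118. No member differed between day 7 and day 2 by limma at an adjusted p under 0.05, and 1 did at an unadjusted p under 0.05. Over all probe sets the share called between these days was also 0%, with 460 at an unadjusted p under 0.05. Among the 15 arrays of Control, Spi-2 and Spi-7, limma's F-test called Rpl14 and Rps28 (limma adjusted p 0.012 and 0.017), where 5.75% of all probe sets passed. Without Control replicate 3 it called neither, and without Spi-2 replicate 4 it called 5 members. Shares over all probe sets are not given for these fits.

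At day 21, 10 members were called lower (22.2%, where 10.7% of all probe sets were) and 1 higher (where 5.94% were), and the median was -0.25. Of the 911 other bright probe sets 20.6% were called lower that day, and of the 29 bright members 20.7%. They were 6 of the large subunit, namely Rpl5, Rpl7, Rpl14, Rpl24, Rpl27a and Rpl35a, and 4 of the small subunit, namely Rps3, Rps3a, Rps15a and Rps24. All 10 were also called lower at day 60, in a comparison with the same Control animals. The overlap of these days over all probe sets is not given, so it cannot be read as a result about the members. The day 21 count moved with the animals included. Without Spi-21 replicates 1 to 3 no member was called in either direction, and without replicates 1 to 4, the animals with the larger Gapdh difference, 2 were called lower and 0 higher. Calls over all probe sets went down as well, from 1381 lower and 767 higher to 505 and 175 without replicates 1 to 3 and to 436 and 195 without replicates 1 to 4. The median of the members was then -0.17 and -0.20. Leaving out 1 Control animal, replicate 1, 2 or 3, brought the count to 3, 4 and 4. Over all probe sets these fits called 1027, 825 and 868 lower and 483, 372 and 408 higher.

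Between day 60 and day 21, whose 16 arrays come from the same study, limma called 0 of the 45 members, and 5 had an unadjusted p under 0.05. Of all probe sets 1 was called (0.00774%). Without Spi-21 replicates 1 to 4, which leaves 4 animals at day 21, 3 members were called. The share over all probe sets in that fit is not given here, so the 3 calls cannot be read as a result about the members. Day 60 against day 2 was compared after the data were seen, and it sets arrays of both studies against each other. Here 11 members were called lower (24.4%, where 5.74% of all probe sets were) and 0 higher (where 5.26% were). In either direction 16 had an unadjusted p under 0.05, and limma with array weights called 1 higher. They were Rpl13a, Rpl21, Rpl22, Rpl23a, Rpl24, Rpl27a, Rpl34, Rpl35, Rpl35a, Rpl37a and 1 set of Rpsa, that is 10 of 30 large subunit and 1 of 15 small subunit probe sets. The 911 other bright probe sets went both ways in this comparison, with 74 called lower and 109 higher.
Rpl23a differed most, by -1.01 ± 0.20 (limma adjusted p 0.0018), and Rpl21 by -0.76 ± 0.12 (1.5e-04). Rpl13a, which can leave the ribosome to silence inflammatory mRNAs, differed by -0.75 ± 0.17 (limma adjusted p 0.0060), although neither day was called against Control. It ran from 11.84 to 12.81 in Spi-2 and from 11.02 to 12.07 in Spi-60, around Control levels of 11.98, 12.04, 11.79 and 11.73. Without Spi-2 replicate 4 the count fell to 5, and without Spi-2 replicate 5 to 7. Counts over all probe sets are not given for these fits.

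**Figure D3:**
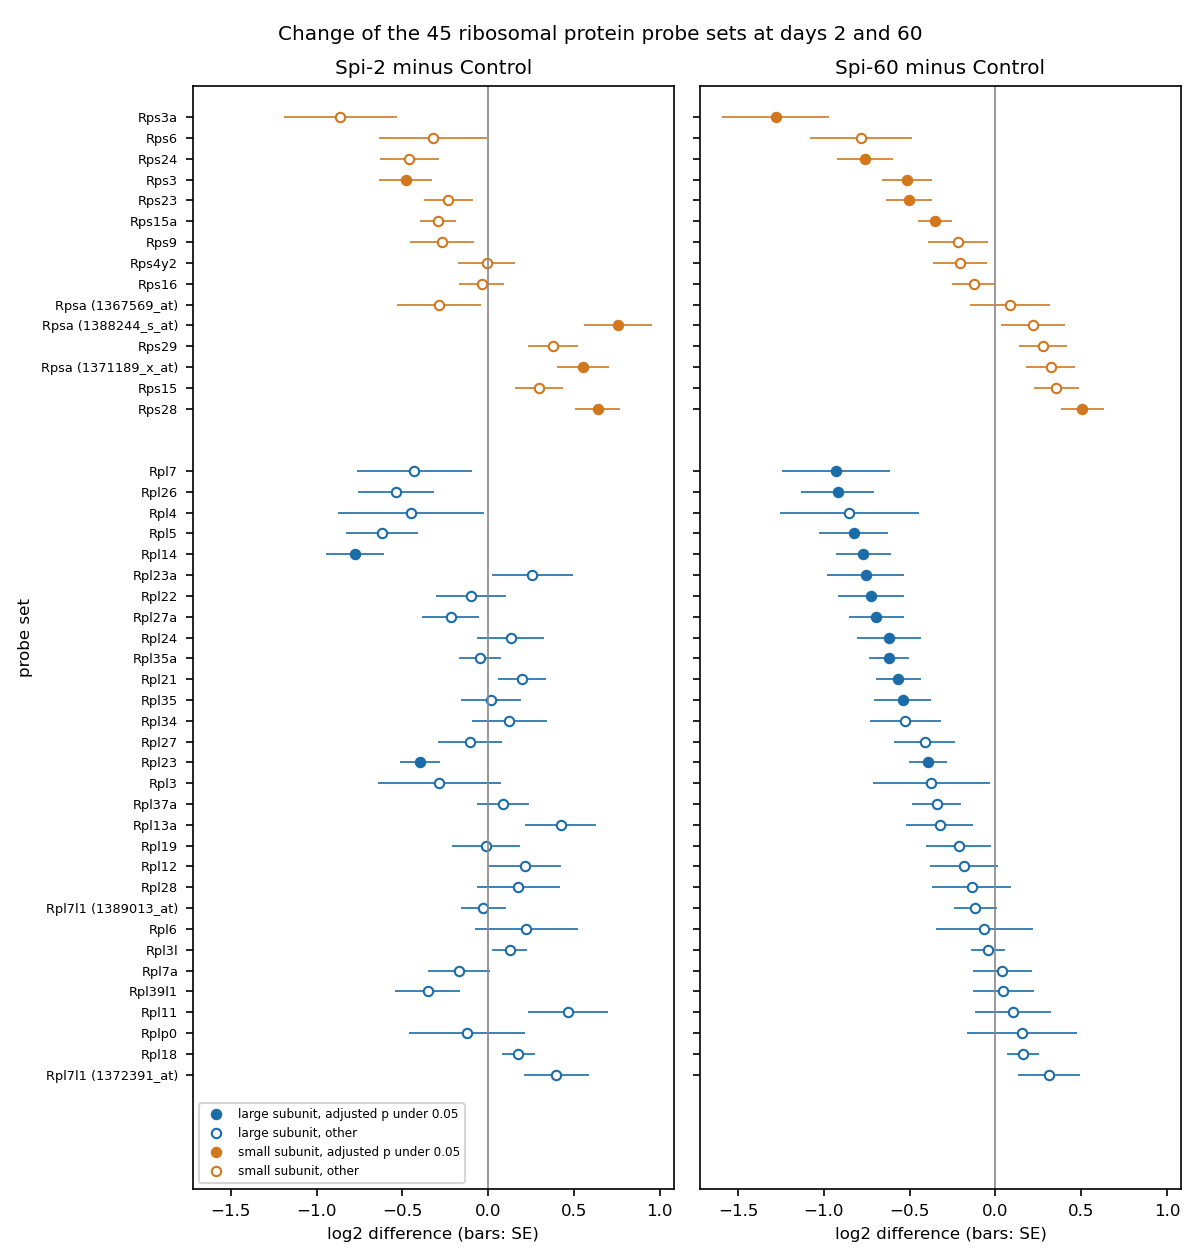
Log2 difference from Control (horizontal axis, bars are the SE of the fit) of the 45 probe sets at day 2 (left) and day 60 (right), with the large subunit in blue below and the small subunit in orange above, filled where limma's adjusted p was under 0.05. At day 60 12 large and 5 small subunit sets are filled to the left of 0 and Rps28 to the right, whereas at day 2 large subunit values scatter around a median of -0.02.

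Taking the mean of each subunit's probe sets in each animal, as the deviation from the Control mean, shows how the subunits went within an animal. For the large subunit, Control animals ran from -0.12 to 0.09, Spi-7 animals were at -0.04, -0.09, -0.21, 0.05 and -0.46, Spi-21 animals ran from -0.67 to -0.11 (median -0.23) and Spi-60 animals from -0.73 to 0.00 (median -0.36). For the small subunit, Control ran from -0.10 to 0.16, Spi-21 from -0.34 to 0.12 (median -0.18) and Spi-60 from -0.54 to 0.17 (median -0.19). Both subunits overlapped with Control at every day, and replicate 6 was the lowest Spi-60 animal for both.
The difference of large minus small within an animal was narrower. It ran from -0.06 to 0.04 in Control and from -0.22 to -0.08 in Spi-60, where all 8 animals lay below Control. In Spi-2 5 animals lay between -0.01 and 0.05 and replicate 1 was at -0.20, and in Spi-7 it ran from -0.11 to 0.10. In Spi-21 it was -0.19, -0.31, -0.33 and -0.26 in replicates 1 to 4 and -0.04, 0.02, 0.01 and -0.04 in replicates 5 to 8. These are the animals with a Gapdh difference of 2.76 to 3.54 and of 1.13 to 1.66. The Spi-2 and Spi-7 animals had Gapdh differences of 2.30 to 3.38 with a subunit difference of -0.11 to 0.10 in all but Spi-2 replicate 1. The part of RNA length in the subunit difference was not tested. The scores count probe sets, so that Rpsa enters the small subunit mean 3 times and Rpl7l1 the large subunit mean 2 times. At day 60 the 3 Rpsa sets had values of 0.08, 0.32 and 0.22, which lift the small subunit mean and widen the subunit difference. A score with 1 probe set per gene is not given. The score sums members chosen by name and was given no test.

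**Figure D4:**
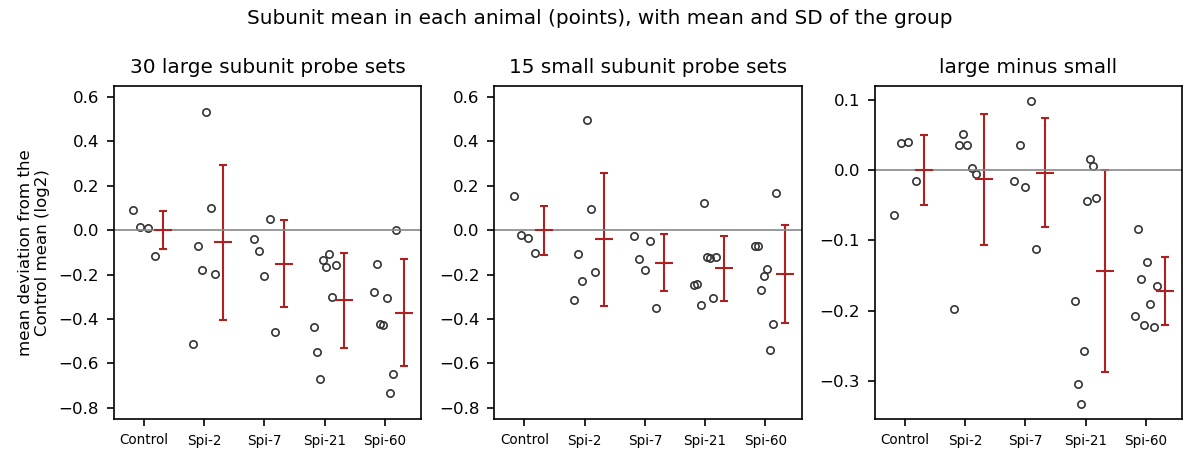
Mean deviation from the Control mean (vertical axis, log2) of the large subunit probe sets (left), the small subunit probe sets (middle) and their difference (right, own scale) in each animal (open circles), with the group mean and SD (red). In the right panel the 8 Spi-60 animals lie between -0.22 and -0.08, below the Control range of -0.06 to 0.04, and the Spi-21 animals fall into 2 sets of 4. Each probe set counts once, so that the gene Rpsa enters the small subunit mean through several sets.

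Of the 45 members, 25 were called at no day, 18 of the large and 7 of the small subunit. Among them was Rpl19, a protein that bridges the subunits, with Control levels of 12.38, 12.16, 12.11 and 12.13 and a Spi-60 range of 11.47 to 12.58 (median 12.03). Its value at day 60 was -0.22 ± 0.19 (limma adjusted p 0.47). The paralogues were not called either. Rpl3l, the striated muscle form of Rpl3, was dim, at 5.53, 5.60, 5.73 and 5.70 in Control and from 5.37 to 5.74 in Spi-60, with a value of -0.04 ± 0.10. Rpl7l1, a nucleolar relative of Rpl7 that acts in large subunit assembly, had 2 probe sets with values of 0.31 ± 0.18 and -0.12 ± 0.12 at day 60, where Rpl7 itself was called lower. A member without a call is not shown to be unchanged.

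Other genes of the same machinery were counted beside the 9.89% of all probe sets that were called lower and the 7.2% called higher at day 60, and the 20.1% and 14.2% of the 911 other bright ones. Of the 33 probe sets that match a ribosomal protein gene and further genes, 11 were called lower at day 60 (33.3%) and 0 higher, with a median of -0.44. The mitochondrial ribosomal proteins, which are encoded in the nucleus for a separate ribosome, had 27 of 79 probe sets lower (34.2%) and 5 higher (6.33%) at day 60, with a median of -0.29. At day 2 15 of them were lower and 3 higher (median -0.18), where the cytosolic members had 3 of 45 in each direction. Among 50 measured ribosome biogenesis factors 14 were lower (28%) and 2 higher (4%) at day 60, with a median of -0.25. Ncl (nucleolin), the main protein of the nucleolus, was lower at every day, by -1.50 ± 0.17 at day 2 and -1.06 ± 0.16 at day 60 (limma adjusted p 2.9e-06 and 1.0e-04). Nop58, a core protein of the box C/D particles that methylate rRNA, went from 0.47 ± 0.14 at day 2 to -0.56 ± 0.14 at day 60, both called (limma adjusted p 0.035 and 0.0054).
Of 41 translation factors 6 were lower (14.6%) and 3 higher (7.32%) at day 60, with a median of -0.08. Eif5a, which helps the ribosome through proline stretches, rose by 0.89 ± 0.14 at day 60 and 0.63 ± 0.14 at day 21 (limma adjusted p 1.6e-04 and 0.0043). The elongation factors that bring the tRNA, Eef1a1 and its neuronal form Eef1a2, had values of -0.50 ± 0.39 and 0.57 ± 0.24 at day 60 and were not called. Of 14 other mRNAs known for a terminal oligopyrimidine tract, 3 were lower (21.4%) and 0 higher at day 60 with a median of -0.33, among them Eif4a2 at -1.17 ± 0.24 (limma adjusted p 0.0014). This list and the translation factors overlap, and Eif4a2 and Eef1a1 are counted in both. Hnrnpa1 was higher at day 2 by 0.97 ± 0.24 (limma adjusted p 0.0091), with a value of -0.29 at day 60. Of 19 genes of the mTOR and S6 kinase pathway 1 was lower (5.26%) and 2 higher (10.5%) at day 60, with a median of 0.05. The lower one, Pdcd4, a brake on the helicase Eif4a that S6 kinase removes, was lower at every day, with a change of -1.40 ± 0.18 at day 60 (limma adjusted p 7.7e-06). Mlst8, a subunit of the mTOR complexes, rose by 0.46 ± 0.12 at day 60 (limma adjusted p 0.0086). Rack1, a scaffold protein bound to the small subunit, had a value of -0.26 ± 0.21 and was not called.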

How the data were processed

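Probe sets outside the Ensembl annotation of the Affymetrix rat genome chip were discarded by the authors, who compensated the background, normalized, and deposited RMA expression summaries on the log2 scale (RMA is named in the submitters' processing notes, with no version); the 12919 deposited log2 values per array were background compensated again. The 6 control sets were left out. A mean per group was fitted to the 31 arrays with limma 3.58.1 in R 4.3.3 (moderated variances, no covariate), over all 12913 probe sets, with Benjamini-Hochberg adjustment, an FDR of 0.02 for the F-test and 0.05 for two-sided contrasts. Days 0, 2 and 7 (15 arrays) and days 60 and 21 (16 arrays) were also fitted within their study. Gene names came from GEO's platform annotation (11880 probe sets with 1 symbol, 320 with several, 713 with none); suffixed and pseudogene-rich sets can bind other transcripts. Precision is limited by the number of arrays.

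The members, gene lists and tests were chosen with earlier results of these data known. Members described in full were, by rule, the 3 lower and 3 higher calls with the smallest p at each day, those called at days 2, 21 and 60, those called higher, the brightest 3, genes whose probe sets differed and paralogues. Alternatives were a further quantile normalization, median centring, an intensity trend, array weights, a Gapdh covariate, replicate numbers as a block, only the groups compared, no dim sets, 1 set per gene and left-out animals. Replicate numbers do not pair the animals: the correlations of same-numbered deviations ran from -0.33 to 0.35 (median -0.04) in 51 pairs, with 11 over 0.1. Those of different number ran from -0.37 to 0.45 (median 0.01) in 327 pairs, with 78 over 0.1. Scripts were tested on simulated data. Figures were drawn with matplotlib 3.10.9.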

Additional observations from a re-analysis of the deposited data

Results flagged for a closer look

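Of 90 sets of values (15 probe sets described by rule and 3 subunit scores, in 5 groups), 9 held an animal whose gap to its nearest neighbour was larger, relative to the group's range, than Dixon's critical value, and chance alone gives about 1 in 20. Control replicate 1 stood apart for Rpl19 (12.38, others 12.11 to 12.16), Rps15a (8.66, others 9.09 to 9.15) and the Rpsa set with suffix s (10.91, others 10.28 to 10.31). Spi-21 replicate 4 stood apart for Rpl23 (10.37, others 9.83 to 10.08) and the plain Rpsa set (8.45, others 7.17 to 7.69), and Spi-21 replicate 7 for 1 set of Rpl7l1 (6.22, others 7.10 to 7.55). The other set of Rpl7l1 had Spi-2 replicate 1 apart (6.97, others 7.41 to 7.62), and Rps24 had Spi-7 replicate 5 (7.41, others 7.97 to 8.17). Spi-2 replicate 1 had a large minus small subunit difference of -0.20, where the other Spi-2 animals had -0.01 to 0.05.

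The change from Control differed between day 60 and day 2 in 11 members by limma's contrast of the groups, all toward lower values at day 60. Of all probe sets 5.74% were called lower there. It is the same comparison of day 60 with day 2 as above, not a further result. Without Spi-2 replicate 4, 6 of the 11 calls were lost. The differences of the changes were -1.01 for Rpl23a, -0.76 for Rpl21, -0.75 for Rpl24 and -0.75 for Rpl13a. For Rpl34 the difference was -0.65, for Rpl22 -0.63, for Rpl35a -0.57 and for Rpl35 -0.56. The set of Rpsa with suffix s gave -0.54, Rpl27a -0.48 and Rpl37a -0.43. The compared groups come from different studies, so that study and time cannot be told apart.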

How the results depend on the processing

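No member's call changed sign under any of 41 alternatives, and the 5 members Rpl13a, Rpl21, Rpl23a, Rpl24 and Rpl35a kept their call of day 60 against day 2 in all of them. With the Gapdh covariate the members called were 7 in the F-test over the 5 groups (12 as reported), 1 lower at day 7 (higher: 0), 2 lower at day 60 (higher: 0), 8 among days 0, 2 and 7 and 7 at day 60 against day 2. Over all probe sets the covariate gave 131 lower and 59 higher at day 7, and 170 and 97 at day 60. A further quantile normalization gave 1 lower at day 2, 1 at day 7, 5 (and 4 higher) at day 21 and 4 higher at day 60. Over all probe sets it gave 551 lower at day 2 and 168 at day 7, against 643 and 216. At day 21 it gave 1014 lower and 1103 higher, against 1381 and 767, and at day 60 1154 higher, against 930. Array weights gave 22 in the F-test, 8 lower at day 2, 6 lower at day 7 and 3 higher at day 60. They also gave 9 among days 0, 2 and 7 and 1 higher at day 60 against day 2. For the F-tests and day 60 against day 2, counts over all probe sets are not given with the covariate or the weights. The member counts of those tests cannot be read as results about the members. Over all probe sets the weights gave 1220 lower at day 2 and 835 at day 7, against 643 and 216. Higher calls at day 60 were 1436 of all probe sets with the weights, against 930. Fitting only the groups compared gave 1 lower and 1 higher at day 2 and 4 lower at day 7. Over all probe sets it gave 690 lower and 414 higher at day 2, against 643 and 503, and 343 lower at day 7, against 216. The variance trend gave 1 and the filter on dim sets 4 lower at day 7, and median centring 2 higher at day 60. Of all probe sets these called 195 and 246 lower at day 7 and 1023 higher at day 60. Without Spi-21 replicates 1 to 3, 0 were lower and 0 higher at day 21, where 505 and 175 of all probe sets were. Without replicates 1 to 4, chosen after the data were seen, 2 and 0 were, where 436 and 195 of all were. In that last fit 3 members differed between days 60 and 21, for which no count over all probe sets is given.

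The replicate numbers do not pair the animals. With the replicate number as a block, 9 members were called in the F-test, 1 lower and 2 higher at day 2, 1 lower at day 7, 10 at day 21 and 16 at day 60, with 2 higher there, and 0 among days 0, 2 and 7. Over all probe sets the block gave 505 lower and 418 higher at day 2, against 643 and 503. Lower calls over all were 158 at day 7 and 1340 at day 21, against 216 and 1381. At day 60 it gave 1264 lower and 972 higher, against 1277 and 930. Counts over all probe sets are not given for its F-tests.

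Leaving out each animal in turn gave 5 to 15 in the F-test (7 without Control replicate 2, 5 without replicate 3), and the counts of lower members were 1 to 6 at day 2, 0 to 3 at day 7, 3 to 12 at day 21 and 12 to 19 at day 60. Higher members numbered 1 to 4, 0 to 1, 1 to 2 and 1 to 2 on those days. Calls across the whole array moved too. Its fewest lower calls by day were 413, 100, 825 and 830, and its most were 790, 244, 1540 and 1391. Its higher calls numbered at least 262, 47, 372 and 590, and at most 599, 147, 921 and 1020. The same fits gave 0 to 5 members among days 0, 2 and 7. At day 60 against day 2 they gave 5 to 12 lower and 0 to 1 higher. They gave 0 for day 7 against day 2 and day 60 against day 21. No counts over all probe sets are given for the F-tests or for comparisons between injured groups. Those ranges cannot be read as results about the members. The day 7 lower count was 0 without Control replicate 3 and 1 without Spi-7 replicates 3, 4 or 5, and the day 21 lower count was 6 and 5 without Spi-21 replicates 2 and 3. Over all probe sets the lower calls in these fits were 100, 163, 183 and 201 at day 7. At day 21 they were 1157 and 1127 over all probe sets. The causes were not tested. The Control group of 4 animals and the amplified RNA of few cells limit what a missing call can show.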
